A study of Mus musculus with 2 samples.

Results

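The regions described here are the 1 kb windows directly upstream of highly expressed protein-coding genes in activated mouse B cells. A window belongs to the set when its gene is a coding RefSeq transcript with a level of at least 30 RPKM in the Nedd4+/+ library and a name that does not start with Hist. RPKM is the number of reads per kb of sequence, scaled to the size of the library. By this rule 665 of 23288 windows were taken, and 61 windows of histone genes were left out. The rule reads the gene level and not the upstream level, so the levels of the windows are measurements that did not choose them, whereas the gene levels of the same genes did.

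RNA was measured in splenic B cells of fetal liver chimeric mice, in which donor fetal liver gives rise to the blood system. There was 1 Nedd4+/+ and 1 Nedd4-/- library, both from mice on a mixed B6 and 129 background that had been backcrossed to B6. Both cultures received LPS, a bacterial activator of B cells, and the cytokine IL4 for 72 hours, the stimulus that the study used to bring about class switching to IgG1. RNA was sequenced after removal of ribosomal RNA. Nedd4 encodes a ubiquitin ligase, and the labels do not describe the allele, the number of mice or the blood cells that the hosts still had. With 1 library per genotype there is no replicate check on any difference, no test was possible, and differences compare these 2 libraries.

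Most promoters of active genes start transcription in both directions. RNA made upstream and away from the gene is normally short-lived, because the RNA exosome degrades it, unless the upstream start belongs to another gene that makes a stable transcript. Head-to-head gene pairs of this kind share 1 promoter region. In B cells the deaminase AID acts on transcribed DNA near the starts of some highly expressed genes, so RNA from the upstream side of starts has been studied in these cells.

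A few promoters show what lies between the genes and the windows measured. The first 4 sequences are everything between the starts of 4 of the 5 head-to-head pairs in which both genes are members, and were chosen because 3 of these pairs hold 5 of the 10 highest windows and the fourth holds a window listed at 0. The other 4 are the 250 bases before single starts, chosen because their windows differ between the libraries in either direction and because they span the range of base composition. All are RefSeq sequence in build GRCm38.p6, on the plus strand for pairs and on the strand of the gene for single starts. Capitals mark 3 motifs on either strand, none of which contains another. They are CCAAT, the core of the sites of the factor NF-Y, then GGGCGG, the core of the sites of Sp factors, and last CCGGAAGT, a form of the sites of ETS factors. A match is a description of the letters only.
Mrpl18 / Tcp1, between the starts, chr17:12916092-12916328, plus strand: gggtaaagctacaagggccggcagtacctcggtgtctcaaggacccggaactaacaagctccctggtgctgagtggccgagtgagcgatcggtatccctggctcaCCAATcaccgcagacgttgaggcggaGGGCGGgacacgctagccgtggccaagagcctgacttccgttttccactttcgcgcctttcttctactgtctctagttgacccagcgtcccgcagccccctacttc
Emg1 / Phb2, between the starts, chr6:124712179-124712288, plus strand: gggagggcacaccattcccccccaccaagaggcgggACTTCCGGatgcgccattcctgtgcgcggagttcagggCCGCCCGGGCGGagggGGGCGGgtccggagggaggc
Psmb9 / Tap1, between the starts, chr17:34187331-34187555, plus strand: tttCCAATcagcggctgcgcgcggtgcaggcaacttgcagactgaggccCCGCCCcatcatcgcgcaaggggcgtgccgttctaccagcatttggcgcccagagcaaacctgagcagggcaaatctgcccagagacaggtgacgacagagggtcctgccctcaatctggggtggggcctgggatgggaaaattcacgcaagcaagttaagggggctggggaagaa
Fen1 / 1810006K21Rik, between the starts, chr19:10203922-10204201, plus strand: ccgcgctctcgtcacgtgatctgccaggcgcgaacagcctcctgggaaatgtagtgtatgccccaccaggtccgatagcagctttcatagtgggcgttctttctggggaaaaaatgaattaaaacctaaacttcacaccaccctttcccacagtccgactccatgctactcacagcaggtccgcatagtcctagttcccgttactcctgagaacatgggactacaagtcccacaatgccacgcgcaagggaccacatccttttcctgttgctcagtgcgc
Pim1, chr17:29490535-29490784, plus strand: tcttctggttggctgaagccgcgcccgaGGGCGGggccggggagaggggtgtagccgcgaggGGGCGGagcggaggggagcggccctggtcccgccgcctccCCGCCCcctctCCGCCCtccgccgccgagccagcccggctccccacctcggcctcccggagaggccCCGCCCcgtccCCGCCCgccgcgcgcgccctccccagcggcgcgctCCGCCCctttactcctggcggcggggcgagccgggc
Ptprc, chr1:138175306-138175555, minus strand: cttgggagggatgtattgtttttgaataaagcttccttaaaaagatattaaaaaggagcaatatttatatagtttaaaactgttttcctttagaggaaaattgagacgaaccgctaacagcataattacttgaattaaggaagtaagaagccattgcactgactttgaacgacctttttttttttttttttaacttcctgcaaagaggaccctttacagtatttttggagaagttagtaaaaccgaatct
Hspa5, chr2:34771840-34772089, plus strand: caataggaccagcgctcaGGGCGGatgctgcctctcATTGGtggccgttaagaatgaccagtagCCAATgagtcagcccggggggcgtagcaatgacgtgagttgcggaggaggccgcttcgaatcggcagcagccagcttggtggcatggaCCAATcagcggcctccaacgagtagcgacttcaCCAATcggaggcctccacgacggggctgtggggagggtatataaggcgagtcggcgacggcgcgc
Ipo5, chr14:120910944-120911193, plus strand: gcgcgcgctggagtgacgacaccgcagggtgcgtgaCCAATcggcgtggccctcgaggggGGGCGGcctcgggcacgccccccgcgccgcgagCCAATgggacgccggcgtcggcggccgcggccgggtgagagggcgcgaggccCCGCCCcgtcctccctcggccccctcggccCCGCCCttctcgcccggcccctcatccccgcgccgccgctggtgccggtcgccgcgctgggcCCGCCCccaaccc

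Of the 665 members, 531 were matched to a RefSeq promoter of 300 bases, 250 before and 50 after the start. Their median GC content was 61% and their median CpG ratio, observed over expected, was 0.842. Among all 32851 promoters in that table the medians were 52.7% and 0.384, and among coding genes of 1 to 30 RPKM they were 61.3% and 0.804. The members' promoters thus had the base composition of CpG islands, as did those of less expressed coding genes.

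GGGCGG occurred in 68.4% of the members' promoters, in 35.7% of all promoters and in 68.0% of those of coding genes of 1 to 30 RPKM. CCAAT occurred in 45.4%, 37.4% and 39.3% of the same 3 sets. CCGGAAGT occurred in 9.79%, 3.89% and 10.9%. For GGGCGG and CCGGAAGT the members thus lay near the less expressed coding genes, whereas for CCAAT they lay above both other sets. TATAAA, the core of the TATA box, occurred in 10.7% of the members, in 13.6% of all promoters and in 5.95% of the promoters of coding genes of 1 to 30 RPKM. Members with TATAAA had a lower median upstream level, 0.269 RPKM in Nedd4+/+ and 0.424 RPKM in Nedd4-/-, than those without it, 0.396 and 0.557 RPKM. For AATAAA, another motif counted, the medians were 0.273 and 0.458 RPKM with it and 0.395 and 0.553 RPKM without it. TATAAA occurred in 6.77% of the members' promoters with a head-to-head start within 1 kb and in 13.1% of those with no gene there. Upstream levels also differed between these groups, as given below, and the 2 were not separated. With GGGCGG the Nedd4+/+ median was 0.399 RPKM and without it 0.329 RPKM, and with and without CCAAT it was 0.391 and 0.383 RPKM. Ordered by CpG ratio into 3 groups of 177, the medians were 0.306, 0.349 and 0.521 RPKM from the lowest to the highest ratio.

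The libraries differ in ways that touch all windows. From the files' values, Nedd4+/+ was sequenced to 8.40 gigabases and Nedd4-/- to 6.17 gigabases, and 1 read pair in a window is worth 0.0241 and 0.0328 RPKM. Nedd4 itself was at 7.59 RPKM in Nedd4+/+ and at 1.95 RPKM in Nedd4-/-. All 8 B cell markers examined were present, with summed levels of 1280 and 1059 RPKM. The 6 T cell markers summed to 13.6 and 11.1 RPKM, mostly Thy1, and the 12 markers of myeloid, erythroid and NK cells were each under 2 RPKM in both. Xist, transcribed from the inactive X chromosome of female cells, was at 23.7 and 0.0958 RPKM, and the Y-linked gene Ddx3y at 2.63 and 10.6 RPKM, so genotype and sex of the mice cannot be told apart. Windows of coding genes under 0.1 RPKM in both libraries had a median of 0.0241 RPKM in Nedd4+/+ and 0.0655 RPKM in Nedd4-/-.

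Most member windows were weakly covered. The median upstream level was 0.384 RPKM in the Nedd4+/+ library, with a middle range from 0.180 to 0.896 RPKM and a highest value of 29.3 RPKM. In the Nedd4-/- library the median was 0.533 RPKM, the middle range 0.305 to 0.895 RPKM and the highest value 24.1 RPKM. A median window rested on 16.0 and 16.3 read pairs, so single low windows are imprecise. Taken window by window, the upstream level as a share of the gene level had a median of 0.683% in Nedd4+/+ and 1.30% in Nedd4-/-. The rule set the gene level at 30 RPKM or more, so small shares are in part fixed by the choice of members. In each library 28 windows (4.21%) reached 10% of the gene. Among all windows 64.5% did so in Nedd4+/+ and 76.6% in Nedd4-/-. Among coding genes of 1 to 30 RPKM the shares were 31.2% and 53.3%.

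Upstream levels were higher in the members than in less expressed coding genes, but varied little with gene level within the members. Coding genes of 1 to 30 RPKM had median upstream levels of 0.237 and 0.4003 RPKM, below those of the members in both libraries. Within the members, the 342 genes of 30 to 50 RPKM had a median of 0.317 RPKM in Nedd4+/+, the 224 of 50 to 100 RPKM had 0.423 RPKM and the 99 of 100 RPKM or more had 0.424 RPKM. Across the 665 windows, Spearman's rho between upstream and gene level was 0.07 in Nedd4+/+ and 0.06 in Nedd4-/-; the points of each library share its depth. The windows kept their order between the libraries, with a rho of 0.87 between Nedd4+/+ and Nedd4-/- levels. The 3 members nearest the threshold, Snrpd3 at 30.0058 RPKM, Fli1 at 30.0129 and Smchd1 at 30.0161, had upstream levels of 1.11, 0.436 and 0.887 RPKM. The 3 genes just outside, Rps10 at 29.9897 RPKM, Bzw2 at 29.9827 and Pgam1 at 29.9679, had 0.253, 1.31 and 0.171 RPKM.

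Within the members, what the reference annotation places in the window went with larger differences in level than the gene's own level did. The rule cut the range of the gene level at 30 RPKM, so this does not compare the 2 over all genes. Over coding genes below the cut, the Nedd4+/+ upstream median rose from 0.0481 RPKM at gene levels under 0.1 RPKM to 0.281 RPKM at 10 to 30 RPKM. Of the members, 157 (23.6%) had the start of a gene on the other strand within 1 kb, a head-to-head start. Their median upstream level was 0.797 RPKM in Nedd4+/+ and 0.964 RPKM in Nedd4-/-. In 87 windows the body of another gene reached into the kb, with medians of 0.381 and 0.589 RPKM. In 137 windows only other transcripts of the member's own gene lay there, with medians of 0.320 and 0.503 RPKM. The 274 windows with no annotated gene (41.2%) were lowest, at 0.269 and 0.391 RPKM, and 10 members were not matched. Coding genes of 1 to 30 RPKM had nearly the same share of head-to-head starts, 23.7%, and medians there of 0.745 and 0.807 RPKM; their windows with no gene had 0.164 and 0.312 RPKM. Of windows with no gene, 10.6% of the members and 2.61% of these less expressed genes reached 1 RPKM in the Nedd4+/+ library.

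**Figure D1:**
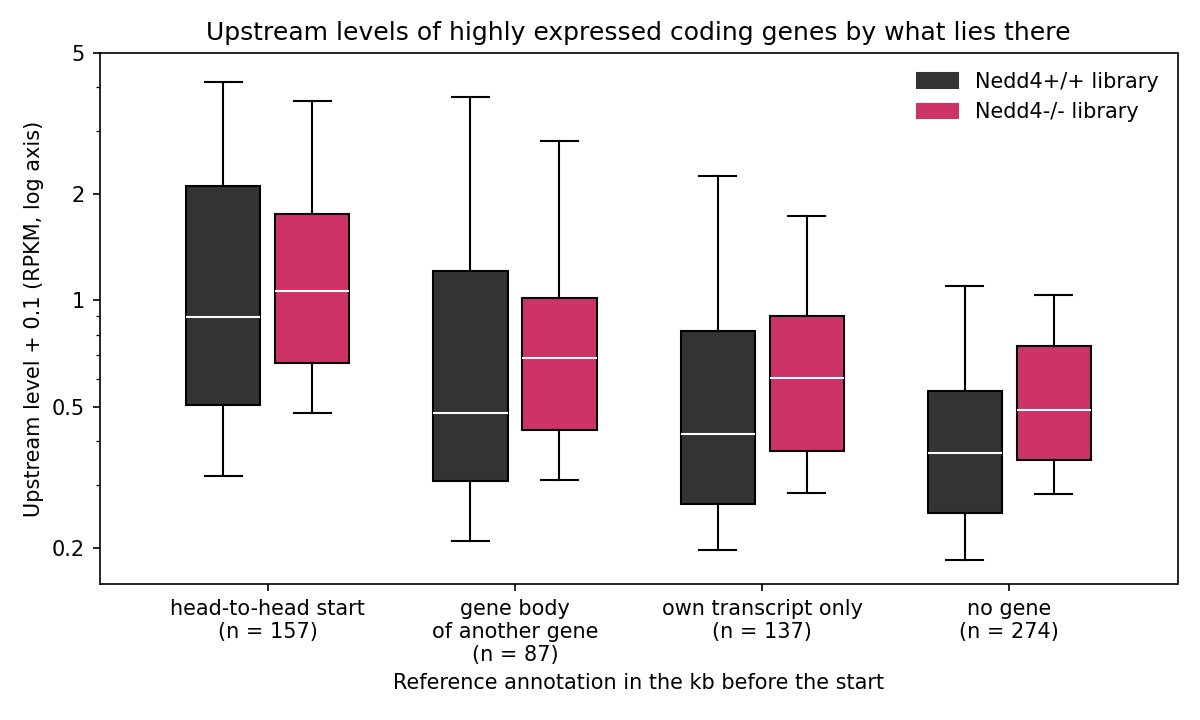
Upstream level plus 0.1 RPKM on a log axis, for member windows grouped by what the reference annotation places in the kb before the start, in the Nedd4+/+ (dark) and Nedd4-/- (red) library. Boxes span the middle range with the median as a white line and whiskers the 10th to 90th percentile over windows, not over samples. Windows with a head-to-head start were highest in both libraries (medians 0.797 and 0.964 RPKM before the 0.1 was added) and windows with no gene lowest (0.269 and 0.391 RPKM).

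A few windows held much of the upstream signal. The 10 highest windows made up 25.1% of the summed upstream level of all members in Nedd4+/+ and 20.4% in Nedd4-/-, and 6 of them were head-to-head. The 25 highest made up 39.6% and 31.9%, and every one of these 25 was lower in the Nedd4-/- library. High windows outside the members were mostly lower too, with 335 of 358 at a mean of 5 RPKM or more. Whether reads were counted by strand is not given in the sources used here, so the transcript of a head-to-head partner and RNA of other origin in the window cannot be told apart.

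The highest window was that of Mrpl18, a protein of the mitochondrial ribosome. Its upstream level was 29.3 RPKM in Nedd4+/+ and 24.1 RPKM in Nedd4-/-, nearly as much as the gene itself, at 33.1 and 27.5 RPKM. Its head-to-head partner Tcp1, a subunit of the cytosolic chaperonin, was at 140 and 107 RPKM. The 237 bases printed above separate the annotated starts, and in the reference 284 bases of the Mrpl18 window are exons of another gene. The window of Tcp1, which reaches the other way over Mrpl18, was at 12.04 and 10.7 RPKM.

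The same arrangement held for Emg1, a ribosome assembly factor, and Phb2, a prohibitin of the mitochondrial inner membrane. The window of Emg1 was at 26.7 and 18.3 RPKM and that of Phb2 at 19.2 and 15.5 RPKM. In Nedd4+/+ these levels were 35.7% and 27.0% of those of the genes, which were at 74.7 and 71.4 RPKM. Only 110 bases lie between these starts, and they hold GGGCGG on either strand and 1 CCGGAAGT.

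Psmb9, a subunit of the immunoproteasome, and Tap1, a peptide transporter for MHC class I, form another pair in the MHC region. The window of Psmb9 was at 23.4 and 15.4 RPKM and that of Tap1 at 7.74 and 6.89 RPKM. Exons of other genes cover 641 bases of the Psmb9 window and 801 of the Tap1 window.

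The pair of 1810006K21Rik and Fen1, a nuclease of DNA replication, was one-sided. The window of 1810006K21Rik was at 8.73 and 6.12 RPKM, with Fen1 at 41.8 and 28.6 RPKM. The window of Fen1 was listed at 0 in both libraries, although 1810006K21Rik was at 33.6 and 25.6 RPKM and its start lies 280 bases away. The remaining pair of members was Hdlbp, an RNA-binding protein, and a septin whose symbol the files turn into the date 2-Sep. The window of Hdlbp was at 2.01 and 1.93 RPKM and that of 2-Sep at 1.69 and 1.57 RPKM, well below the windows of the other pairs except that of Fen1.

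Xbp1, Ly6a, Ndufs8 and Gm13826 were, besides Fen1, the other 4 members listed at 0 in both libraries, and no member was at 0 in 1 library alone. Among all 23288 windows, 197 were listed at 0 in both, and such an entry may be a missing estimate.

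Other high windows had no coding partner. The window of Rps2, a protein of the small ribosomal subunit, was at 16.4 and 13.9 RPKM and faces the start of the noncoding gene Snhg9, a host of small nucleolar RNA. The windows of H2-DMb2 and H2-DMb1, the beta chains of the MHC class II peptide loader, were at 16.0 and 12.03 RPKM and at 12.5 and 9.63 RPKM. These genes are near-identical neighbours on 1 strand, so reads could have been assigned between them. Sp140, a nuclear body protein, had 12.8 and 9.62 RPKM, with a body of another gene in the window. Pax5, the transcription factor that sets B cell identity, had 7.59 and 5.53 RPKM with no gene annotated in the kb. Vars, the valine tRNA synthetase, had 8.73 and 5.34 RPKM, also with no gene there.

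**Figure D2:**
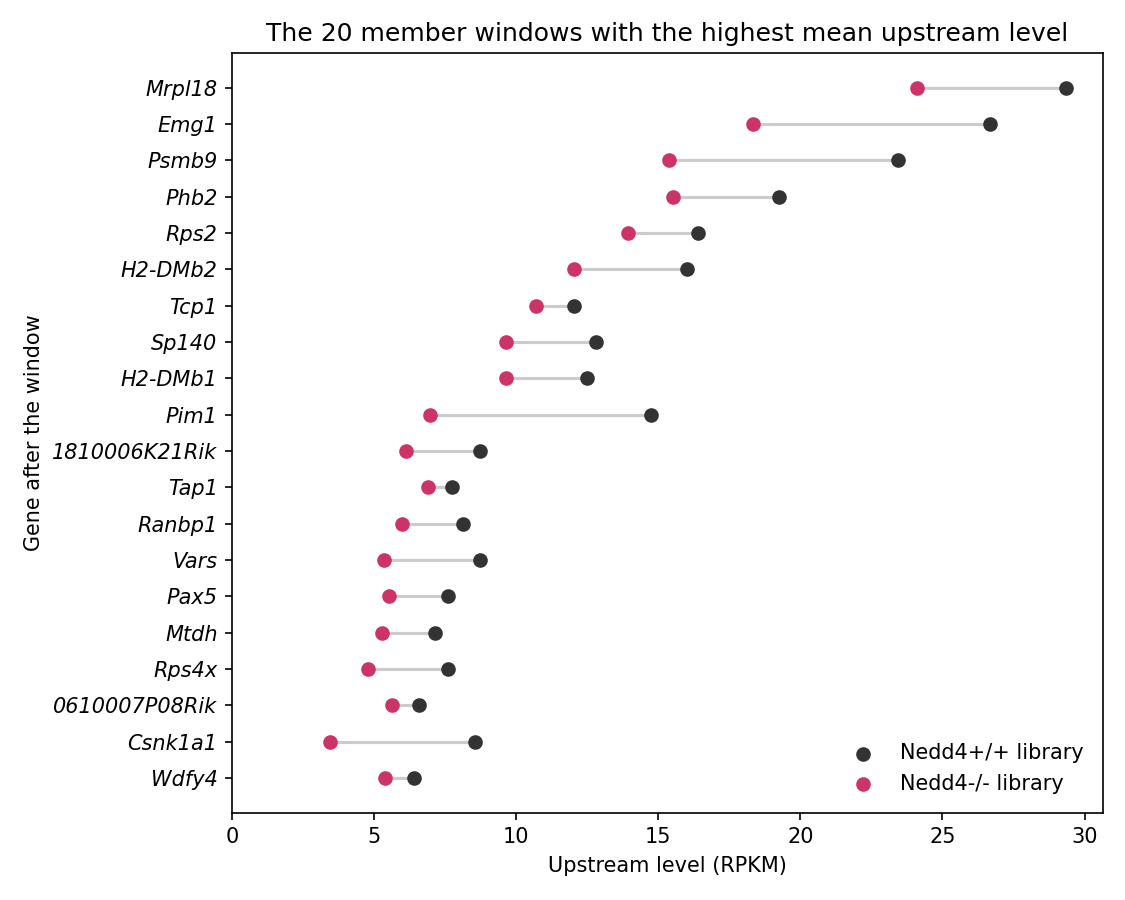
Upstream level in RPKM (horizontal axis) of the 20 member windows with the highest mean of both libraries, with the Nedd4+/+ library in dark and the Nedd4-/- library in red, 1 point per library. All 20 points of the Nedd4-/- library lie to the left of those of the Nedd4+/+ library, and Mrpl18 is highest in both (29.3 and 24.1 RPKM). Of the windows outside the members with a mean of 5 RPKM or more, 335 of 358 were lower in Nedd4-/- as well.

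Of the 157 head-to-head members, 117 had a partner with a row among the genes measured, and 10 had a partner that was itself a member. For 21 of the 117 the partner's row was not that of a coding RefSeq transcript, which describes the row and not the gene. Windows were higher where the partner was higher. Where the partner was under 1 RPKM the median window was at 0.576 RPKM in Nedd4+/+ and 0.687 RPKM in Nedd4-/- (18 windows). With partners of 1 to 10 RPKM it was at 1.11 and 1.05 RPKM (65 windows), with partners of 10 to 30 RPKM at 2.20 and 1.83 RPKM (23 windows), and with partners of 30 RPKM or more at 12.04 and 10.7 RPKM (11 windows). Across these 117 windows Spearman's rho between upstream and partner level was 0.52 in Nedd4+/+ and 0.49 in Nedd4-/-. With the member's own gene level, whose range the rule cut at 30 RPKM, it was 0.11 in Nedd4+/+. Reads over exons of the partner that lie in the window enter both values, and the points of each correlation share 1 library.

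**Figure D3:**
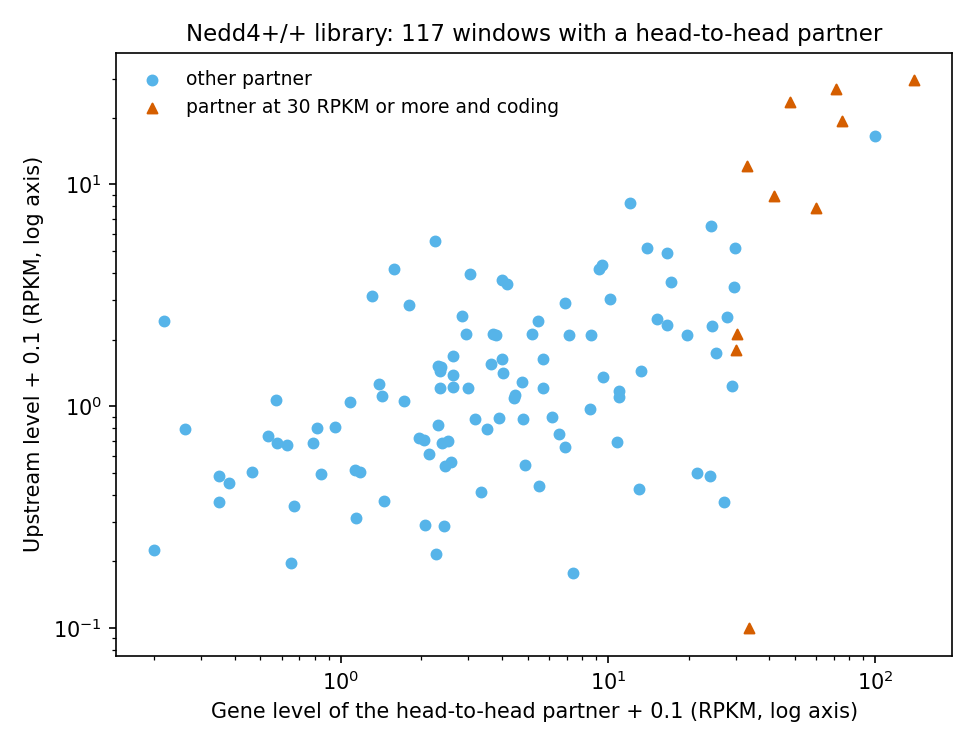
Upstream level of the member window (vertical axis) against the gene level of its head-to-head partner (horizontal axis), both plus 0.1 RPKM on log axes, in the Nedd4+/+ library. Each of the 117 points is 1 window, and triangles mark partners that are members themselves. Windows with partners of 30 RPKM or more had a median of 12.04 RPKM and those with partners under 1 RPKM a median of 0.576 RPKM; the triangle at the bottom is the window of Fen1, listed at 0.

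Between the libraries, more windows were higher than lower in Nedd4-/-, and the direction followed the level of the window. Of the 665 members 413 were higher, 247 lower and 5 at 0 in both. Of all 23288 windows 17662 were higher, 5429 lower and 197 at 0 in both, so the excess was not particular to the members. For ratios 0.1 RPKM was added to each level, which understates the differences of low windows, and windows with a mean of at least 0.2 RPKM were compared. Of these 555 members, 53 were higher in Nedd4-/- by 2-fold or more and 10 lower by 2-fold or more, against 19.8% higher and 0.794% lower among all 11837 windows compared, and the median log2 ratio was 0.14 against 0.41. As shares, 9.55% of the members were higher and 1.80% lower. Centred on the median of all windows, 17 members (3.06%) were higher and 42 (7.57%) lower, beside 769 and 672 of all 11837 windows. The balance of the calls thus depends on the scaling. With the median level of the silent windows subtracted from each library, the median of the 505 members left was -0.00042, with 36 higher and 14 lower. The same count was not made for all windows.

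At equal upstream level, the medians of the members and of all other windows lay close together from 0.5 RPKM upward and apart from 0.1 to 0.5 RPKM. Under 0.1 RPKM they were 0.345 and 0.348, and from 0.1 to 0.2 RPKM 0.522 and 0.627. The median log2 ratio of the 253 members with a mean of 0.2 to 0.5 RPKM was 0.50, and that of the 7570 other windows in this range 0.67. Here 15.8% of the members and 28.5% of the others were higher by 2-fold or more. From 0.5 to 1 RPKM both medians were 0.16. From 1 to 2 RPKM both were -0.15, and from 2 to 5 RPKM they were -0.35 and -0.36. At 5 RPKM or more they were -0.41 for the members and -0.43 for the others. All 23 members of this range were lower in Nedd4-/-, as were 335 of the 358 others. By 2-fold or more, 3 of these 23 (13.04%) and 4.19% of the others were lower. Above a mean of 1 RPKM, 2 of 145 members were higher by 2-fold or more and 7 lower by 2-fold or more, against 0.474% and 1.8% of all 2109 such windows. The difference in depth and the higher level of the silent windows in Nedd4-/- lie in the same libraries as the genotype and cannot be told apart from it.

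**Figure D4:**
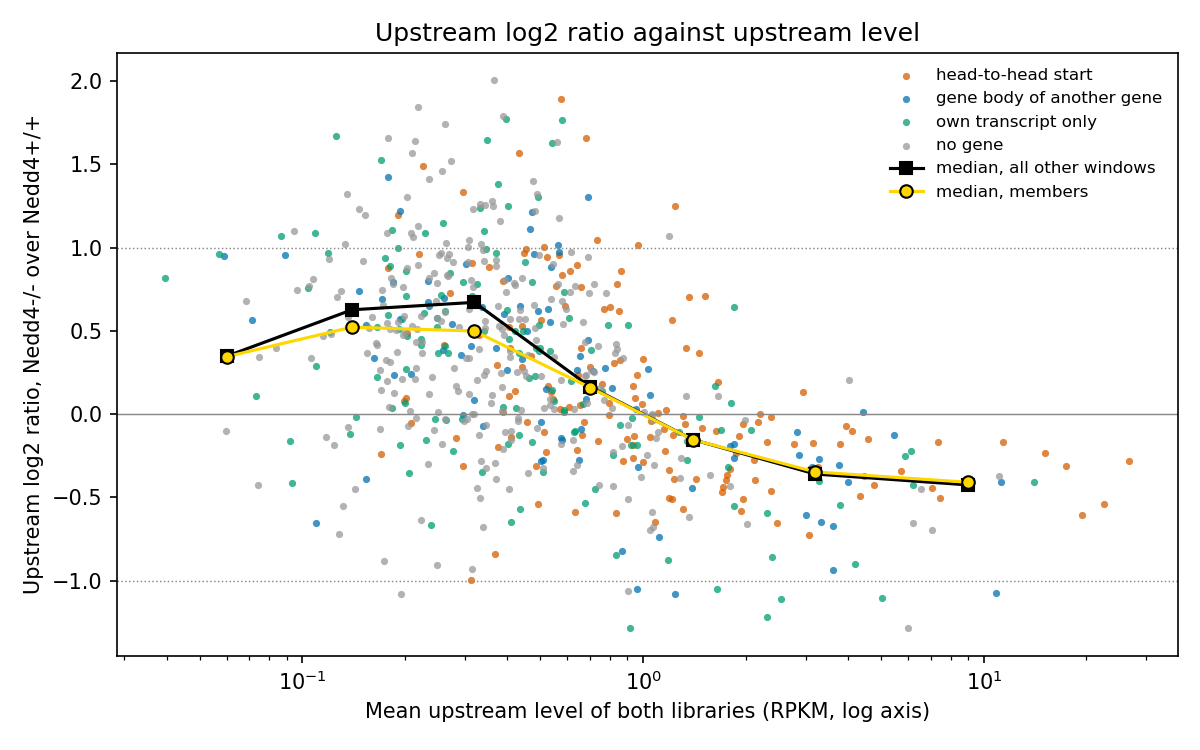
Log2 ratio of the upstream level, Nedd4-/- over Nedd4+/+, each plus 0.1 RPKM (vertical axis), against the mean upstream level of both libraries on a log axis. Small points are member windows coloured by what the annotation places in the kb, gold circles are their medians by level and black squares the medians of all other windows; dotted lines mark 2-fold. Both lines of medians start above 0 (0.345 and 0.348), rise at low levels and then fall to -0.41 and -0.43 at 5 RPKM or more.

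The 7 windows of 1 RPKM or more that were at least 2-fold lower in Nedd4-/- were those of Csnk1a1, Csk, Shisa5, Aebp2, Lmo2, Pim1 and Ptprc. Pim1, a kinase induced by cytokines and a known target of AID, had 14.7 RPKM in Nedd4+/+ and 6.95 RPKM in Nedd4-/-, a log2 ratio of -1.07. The Clopper-Pearson 95% interval of the plain ratio of read pairs was -1.32 to -0.86, which covers counting error only. In the reference the body of another gene on the other strand, Gm26885, reaches into the Pim1 window. The Pim1 gene was at 89.7 and 46.0 RPKM, also lower in Nedd4-/-. Its 250 bases printed above are 82.4% GC and hold GGGCGG on either strand 7 times.

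Csnk1a1, casein kinase 1 alpha, had the lowest log2 ratio of these windows at -1.28, with 8.56 and 3.46 RPKM and an interval of the plain ratio of -1.64 to -0.99. Its gene was at 64.7 and 42.5 RPKM. Csk, the kinase that restrains Src family kinases, had 3.28 and 1.35 RPKM and a log2 ratio of -1.22, and the gene 60.1 and 38.6 RPKM.

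Ptprc, the phosphatase CD45, had 2.26 and 1.04 RPKM upstream, a log2 ratio of -1.05. Its promoter differs from the other sequences printed, with a GC content of 31.6% and none of the 3 motifs in the 250 bases printed. Lmo2, a transcriptional adaptor, had 1.72 and 0.762 RPKM, and its gene 37.1 and 16.2 RPKM. The body of another gene on the other strand and 194 bases of exons of Lmo2's own other transcripts lie in the Lmo2 window. Aebp2, a cofactor of the Polycomb complex, had 6.91 and 3.17 RPKM with 370 bases of exons of its own other transcripts in the window. With 1 RPKM added in place of 0.1, Pim1, Csk, Shisa5, Aebp2, Lmo2 and Ptprc came under 2-fold, with log2 ratios from -0.99 for Pim1 to -0.63 for Lmo2.

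The other 3 windows called lower had means under 1 RPKM: Cd22, an inhibitory receptor of B cells, with 1.34 and 0.489 RPKM, and the endoplasmic reticulum proteins Canx and Txndc5. Canx is a lectin chaperone and had 1.26 and 0.549 RPKM. Txndc5 is a disulfide isomerase and had 1.33 and 0.589 RPKM. Their gene levels were lower in Nedd4-/- as well.

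The 53 windows at least 2-fold higher in Nedd4-/- were mostly low. Only those of Rplp1 and A730008H23Rik reached a mean of 1 RPKM. Rplp1, an acidic protein of the ribosomal stalk, had 0.735 and 1.65 RPKM upstream and 491 and 360 RPKM in the gene. Its log2 ratio was 1.07 with the 0.1 added. It came under 2-fold at 0.61 with 1 RPKM added and at 0.65 when centred on all windows. The plain log2 ratio was 1.17, with an interval of 0.49 to 1.86. Ddx5, an RNA helicase, had 1.13 and 1.91 RPKM, and St13, a cochaperone, 1.02 and 1.72 RPKM, both short of 2-fold.

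The largest ratio of all members was that of Ipo5, a nuclear import receptor, with 0.0856 RPKM in Nedd4+/+ and 0.645 RPKM in Nedd4-/-. These values rest on 3.56 and 19.7 read pairs, and the log2 ratio with the 0.1 added was 2.00. The plain log2 ratio was 2.91, with an interval of 1.26 to 5.07. Hspa5, the main chaperone of the endoplasmic reticulum, had 0.208 and 0.947 RPKM upstream, higher in Nedd4-/-, while its gene was at 415 and 215 RPKM, lower in Nedd4-/-. The 250 bases printed above hold CCAAT on either strand 4 times. H2-Eb1, a beta chain of MHC class II, had 0.169 and 0.698 RPKM with little difference in its gene, 184 and 168 RPKM. Ipo5, Hspa5 and H2-Eb1 were picked for their ratios, after their values were seen.

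Gene levels of the members are described only, since the rule chose on them. The median was 49.1 RPKM in Nedd4+/+ and 35.2 RPKM in Nedd4-/-, with 421 members at 30 RPKM or more in both. With 1 RPKM added, the median log2 ratio was -0.42 over the members and -0.31 over all 9405 genes compared, and 22 members were at least 2-fold lower and 0 higher, beside 1.15% and 0.138% of all genes. Centred on the median of all genes, 4 members were lower and 0 higher, beside 21 and 26 of all 9405 genes. The upstream ratio followed the gene ratio weakly. Pearson's r was 0.10 over the 555 windows compared and 0.23 over the 145 of 1 RPKM or more. Spearman's rho was 0.10 and 0.20. Over the 52 windows of 1 RPKM or more without another gene in the kb, r was 0.27 and rho 0.32. Over the 65 head-to-head windows of 1 RPKM or more with a measured partner, r with the partner's ratio was 0.39 and rho 0.31. These correlations are across windows of the same libraries and carry no test.

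Upstream levels are given next by gene group, with counts of called windows beside the 19.8% higher and 0.794% lower of all windows compared. These shares are not matched to the level of each group, and they change with level. Of windows outside the members, 28.5% were higher and 0.462% lower at means of 0.2 to 0.5 RPKM. From 0.5 to 1 RPKM the shares were 7.21% and 1.03%, and from 1 RPKM upward 0.407% and 1.58%. The 21 members of the B cell identity and signalling list had a median of 0.912 RPKM in Nedd4+/+ and 0.688 RPKM in Nedd4-/-, above the 0.384 and 0.533 RPKM of all members. Ptprcap, a CD45-associated protein, had 4.10 and 2.58 RPKM and Pou2af1, a B cell coactivator, 1.79 and 1.37 RPKM. None of the 20 compared was at least 2-fold higher and 2 (10%) were lower, Cd22 and Ptprc.

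The 19 members of the list of genes known as off-targets of AID had medians of 0.926 and 0.882 RPKM. Of these 19, none was at least 2-fold higher and 2 (10.5%) were lower, Pim1 and Cd22, and the median log2 ratio was -0.06. The shares were 19.8% and 0.794% of all windows, which are mostly of lower level. Of windows outside the members with a mean of 0.5 to 1 RPKM they were 7.21% and 1.03%. Apobec3, an antiviral deaminase, had 3.12 and 2.61 RPKM, and Il4ra, the IL-4 receptor chain, 1.46 and 1.10 RPKM. Junb, an AP-1 factor, had 0.445 and 0.186 RPKM, short of 2-fold with the 0.1 added. Cd79b, part of the B cell receptor, had 0.582 and 0.589 RPKM and Cd74, the invariant chain of MHC class II, 0.304 and 0.293 RPKM, so that upstream levels within the list ranged widely. Some genes are on both lists.

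The 7 genes of MHC class II had medians of 1.77 and 1.86 RPKM, including H2-Aa, an alpha chain, at 3.73 and 4.31 RPKM and H2-Ab1, its beta chain, at 1.77 and 1.86 RPKM. Of the 7, 1 (H2-Eb1) was at least 2-fold higher and none was lower. The 9 members of the MHC class I list had medians of 0.640 and 0.607 RPKM, with none called among the 8 compared. Tapbp, the tapasin that loads peptides, had 3.65 and 2.36 RPKM.

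Housekeeping groups lay lower. The 47 ribosomal protein genes had medians of 0.317 and 0.508 RPKM, and 6 of the 38 compared (15.8%) were at least 2-fold higher and none lower, against 19.8% and 0.794% of all windows. Ribosomal proteins have many near-identical pseudogenes, so reads in and around these genes could have been placed elsewhere. The 21 proteasome genes had medians of 0.170 and 0.364 RPKM, with 4 of 15 (26.7%) higher and none lower. The 37 genes of oxidative phosphorylation had 0.291 and 0.326 RPKM, with 4 of 26 (15.4%) higher and none lower, and the 26 translation factors 0.313 and 0.408 RPKM, with 1 of 19 (5.26%) higher. The shares of called windows in these groups lay on either side of that of all windows.

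The 26 genes of folding and secretion in the endoplasmic reticulum had medians of 0.568 and 0.577 RPKM. Of 23 compared, 1 (4.35%) was higher and 2 (8.70%) were lower, Canx and Txndc5. The shares were 19.8% and 0.794% of all windows, and 7.21% and 1.03% of windows outside the members with a mean of 0.5 to 1 RPKM. Although the medians of the group were nearly equal, 15 of the 26 were lower in Nedd4-/- and 10 higher, and the median log2 ratio of the 23 was -0.22. The 21 chaperones had 0.444 and 0.744 RPKM, with 3 of 19 (15.8%) higher. Here Hspd1, the mitochondrial chaperonin, had 3.36 and 2.97 RPKM and the cytosolic Hsp90ab1 0.236 and 0.742 RPKM. The 23 genes of cell cycle and replication had 0.437 and 0.489 RPKM, with 2 of 21 (9.52%) higher.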

How the data were processed

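RNA of 1 Nedd4+/+ and 1 Nedd4-/- culture was sequenced, and groups were taken from the titles. Per the submitters' processing notes, TopHat, Cufflinks and mm9 were used. How reads were counted, and whether by strand, is not given in the sources used here. The authors deposited gene levels in RPKM, per the file headers. The second deposited column, which the header names for the upstream kb, is a ratio, as its values show: the window's level divided by the gene's RPKM plus 0.0001. The design had assumed a level, so the upstream level used here is the product of both.

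Products under 0.2 RPKM were whole numbers of read bases, within 0.05 bases, in 99.9859% of 14140 windows of Nedd4+/+ and 100% of 8122 of Nedd4-/-, at a read length of 101 nt. This gave the depth and the read pairs, which are read bases divided by 202 and need not be whole. Clopper-Pearson 95% intervals on the plain ratio used these fractional counts and are therefore approximate. They cover counting error only, because copies made by PCR were not marked. The recovery of read bases was tested on simulated data. Ratios used log2 with 0.1 RPKM added to upstream levels and 1 RPKM to gene levels, for means of at least 0.2 and 1 RPKM. With 1 library per group, windows at least 2-fold apart were counted and no p-value was computed. Neighbours came from GENCODE M21 on GRCm38, used for names and distances only and matched to rows by accession, since the files turn some symbols into dates, and sequences from RefSeq. Python 3.11.15, pandas 2.3.3 and scipy 1.17.1 were used.

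The members and the 16 gene lists were chosen with earlier results of these data known. The rule for named genes took the 12 highest windows, the 10 highest and 10 lowest ratios from a mean of 1 RPKM, the 8 highest shares of the gene, up to 4 members per list, the AID off-target list, windows listed at 0 and the 3 genes on either side of the threshold, without predicted symbols in the ranked parts. Not all of these are described. Ipo5, Hspa5, H2-Eb1, Hsp90ab1, Cd22, Canx, Txndc5, Hdlbp, 2-Sep, 1810006K21Rik and A730008H23Rik were named after their values were seen, or as partners.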

Additional observations from a re-analysis of the deposited data

How the results depend on the processing

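The count of members at least 2-fold higher in Nedd4-/-, 53, was 97 with a pseudocount of 0.01 RPKM, 0 with 1 RPKM, 2 from a mean of 1 RPKM, 17 centred on all windows, 28 at a gene threshold of 50 RPKM and 110 at 20 RPKM. It was 29 in windows without any gene or own transcript, a choice added after seeing the data. The 10 lower became 1 with 1 RPKM added, 42 centred and 2 without any gene or own transcript. The median log2 ratio of 0.14 became 0.060 with 1 RPKM added, 0.23 without a filter, -0.28 from a mean of 1 RPKM, -0.28 centred, -0.00042 with the silent windows subtracted, 0.19 at 20 RPKM, 0.26 without another gene in the window and 0.31 without any gene or own transcript. So the direction of the median depends on level and scaling, while windows of 1 RPKM or more were lower in Nedd4-/- on the median. The 22 members with a lower gene level became 4 centred and 12 when chosen by the Nedd4-/- level, with 2 higher in place of 0; the median of -0.42 became -0.11 centred. The 28 windows of high share became 66 in Nedd4+/+ and 78 in Nedd4-/- at 5%, and 10 and 8 without another gene.

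Of 31 named windows, none that was called at 2-fold changed sign in any of the alternatives run on them. With 1 RPKM added 7 came under 2-fold. Centred on all windows, 5 that were not called changed sign without being called. In the same setting 4 came to be called and 1, Rplp1, came under 2-fold. Low windows are limited by depth, at a median of 16.0 and 16.3 read pairs. No paired analysis was possible because each genotype has 1 library and the labels carry no replicate numbers.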
